A study of Bos taurus with 27 samples.

Results

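Tight junctions seal the space between neighbouring epithelial cells near their apical border and so set how freely ions and larger molecules pass between the cells. Claudins and the adhesion molecule JAM-A span the membrane at this seal, and scaffold proteins of the ZO family and cingulin tie them to actin on the cytoplasmic side. The intestine of the newborn calf takes up intact immunoglobulins from colostrum for a short period after birth. The study asked whether a later first meal alters how the mucosal immune system of the colon develops. Immunoglobulin uptake is not measured by the RNA counts used here.

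The tight junction genes considered were 9 genes taken by name, CLDN3, CLDN4, CLDN7, CLDN23, OCLN, TJP1, TJP3, F11R and CGN. A gene was kept where its symbol was paired with a single Ensembl bovine identifier in the gene tables used here, which held for 5 of the 9 among 24616 genes counted. These were CLDN7 (ENSBTAG00000019448), a claudin, F11R (ENSBTAG00000017846), which encodes JAM-A, CGN (ENSBTAG00000017564), which encodes cingulin, TJP3 (ENSBTAG00000018342), which encodes ZO-3, and TJP1 (ENSBTAG00000015398), which encodes ZO-1. The other 4, CLDN3, CLDN4, CLDN23 and OCLN, were not analysed here. All 5 genes passed the filter on low counts, which kept 13943 genes with a CPM (a gene's counts scaled to a total of 1000000 per calf) of at least 1 in 5 or more of the 9 calves of each treatment.

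RNA was sequenced from a segment of colon tissue, one per animal, of 27 male Holstein calves killed at 51 h of age. All calves were taken from the dam at birth, and their first meal was pooled, pasteurised colostrum given by tube. TRT0 calves were fed at 0 h, TRT6 calves waited 6 h and TRT12 calves waited 12 h. Milk replacer followed every 6 h, starting 12 h after the colostrum meal. As all calves were killed at the same age, a later meal also meant less time after colostrum and on milk replacer. The delay and these times cannot be told apart. Each treatment held 9 calves, 4 from primiparous heifers (H) and 5 from multiparous cows (C), and no calf went without colostrum. The design asks whether delaying the first meal, or the parity of the dam, changes gene expression in the colon.

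Totals lay between 1163791 and 4202593 counts per calf, with a median of 2215402. At these depths the 5 genes were well counted, with between 76 (TJP3) and 873 (CGN) reads in a single calf. The spread between calves was larger than counting alone would give. The coefficient of variation of CPM over the 27 calves was 16.7% for CLDN7, 17.1% for F11R, 15.5% for CGN, 19.8% for TJP3 and 12.7% for TJP1, against 4.98%, 6.13%, 4.66%, 7.67% and 5.33% from counting error. The libraries carried 3 different run names in the labels, numbered here in the order of those names, with 11, 11 and 5 calves. The first and second names differ only in their last field. Whether a name marks a separate run or a lane is not stated, and each is called a sequencing run here. Treatments and parities were spread unevenly over the runs.

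The tissue carried the markers of colon wall. All 11 epithelium markers (among them EPCAM, VIL1, CDH17 and MUC13) passed the filter, and their summed level was 4798 ± 710.3 CPM (SD, n = 27). The 8 smooth muscle markers summed to 9631 ± 2066 CPM and the 7 fibroblast and matrix markers to 11323 ± 2957 CPM, so each library was a mixture of cell types. In such a mixture, fewer cells of a type and less RNA per cell cannot be told apart. CPM values were not divided by transcript length, so levels are compared between calves and not between genes.

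CLDN7, a claudin found along much of the intestinal epithelium, had the largest treatment difference of the 5 genes. Its level in TRT0 calves ran from 126 CPM through a median of 189 CPM to 232 CPM. In TRT6 calves it ran from 174 CPM through 202 CPM to 251 CPM. In TRT12 calves it ran from 178 CPM through 224 CPM to 294 CPM. The treatments overlapped, although 4 of the 9 TRT12 calves were above every TRT0 calf and 2 TRT0 calves were below every TRT12 calf. CPM carries no TMM (normalization) factors, whereas the tests use them. Overlaps of calves given here and below are therefore not on the tested scale, where such counts can differ. The means were 189 ± 32.1, 208 ± 24.1 and 229 ± 38.0 CPM (SD, n = 9 each). With edgeR's quasi-likelihood test over all genes, the log2 fold change of TRT12 vs. TRT0 was 0.31 (SE 0.11, unadjusted p = 0.0102), and with Benjamini-Hochberg adjustment p was 0.434, short of the threshold of 0.10. DESeq2, the other tool run, gave a log2 fold change of 0.31 and an adjusted p of 0.0910 in the same contrast, so CLDN7 was called by DESeq2 and not by edgeR. DESeq2's filter on mean counts left 697 of 13941 genes with an adjusted p in this contrast, of which 7.32% were called, and F11R and TJP3 were among those without one. With p adjusted over all 13941 genes, an alternative chosen after seeing the data, the DESeq2 adjusted p of CLDN7 was 0.365 and it was not called.

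The difference in CLDN7 between TRT12 and TRT0 had the same direction in calves of both parities. The 5 TRT0_C calves had levels of 126, 211, 184, 232 and 214 CPM, and the 5 TRT12_C calves had levels of 255, 233, 271, 224 and 178 CPM. Only the calf at 126 CPM lay below every TRT12_C calf, and 3 TRT12_C calves were above every TRT0_C calf. The log2 fold change was 0.35 (SE 0.16) in C calves, with an edgeR unadjusted p of 0.0343 and an adjusted p of 0.480. The 4 TRT0_H calves had levels of 185, 155, 203 and 189 CPM, against 196, 204, 205 and 294 CPM in the 4 TRT12_H calves. The highest TRT0_H calf, at 203 CPM, was above the lowest TRT12_H calf, and the log2 fold change was 0.26 (SE 0.18, edgeR adjusted p = 0.99998). TRT12 calves also had the higher mean within each sequencing run. The means were 210 against 179 CPM in the first run (4 and 2 calves) and 243 against 206 CPM in the second (3 and 5 calves). In the third they were 245 against 155 CPM (2 calves each). Parity was not balanced in these means. In the first run both TRT0 calves were H, against 3 C and 1 H in TRT12. In the third both TRT0 calves were C and both TRT12 calves were H, so treatment and parity cannot be told apart there. The calves at 126 and 294 CPM were among these.

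F11R encodes JAM-A, an adhesion molecule of the immunoglobulin family. Its level ran from 95.4 CPM through a median of 126 CPM to 173 CPM in TRT0, from 110.0 CPM through 142 CPM to 190 CPM in TRT6, and from 103 CPM through 134 CPM to 186 CPM in TRT12. The 3 ranges overlapped over most of their length. The means were 131 ± 21.9, 148 ± 24.5 and 142 ± 24.7 CPM (SD, n = 9 each), and the log2 fold change against TRT0 was 0.21 (SE 0.13) for TRT6 and 0.16 (SE 0.13) for TRT12, with edgeR unadjusted p-values of 0.121 and 0.246.

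CGN encodes cingulin, which links the junction to actin and microtubules. Its level ran from 168 CPM through a median of 226 CPM to 296 CPM in TRT0, from 184 CPM through 221 CPM to 285 CPM in TRT6, and from 190 CPM through 253 CPM to 312 CPM in TRT12. The means were 228 ± 35.9, 230 ± 32.7 and 253 ± 40.3 CPM (SD, n = 9 each). The ranges of TRT0 and TRT12 overlapped over most of their length, and the log2 fold change of TRT12 vs. TRT0 was 0.18 (SE 0.11, edgeR unadjusted p = 0.108).

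The ZO scaffolds TJP3 and TJP1 bind claudins and actin. TJP3 ran from 63.5 CPM through a median of 79.0 CPM to 109 CPM in TRT0, from 72.7 CPM through 85.4 CPM to 121 CPM in TRT6, and from 57.8 CPM through 84.5 CPM to 111 CPM in TRT12. Its means, 83.4 ± 17.7, 88.4 ± 16.3 and 86.3 ± 18.7 CPM (SD, n = 9 each), lay within 1 SD of each other. TJP1 ran from 149 CPM through a median of 198 CPM to 213 CPM in TRT0, from 145 CPM through 170 CPM to 206 CPM in TRT6, and from 135 CPM through 174 CPM to 199 CPM in TRT12. Its means were 187 ± 22.5, 174 ± 22.2 and 170 ± 21.8 CPM (SD, n = 9 each). TJP1 was the one gene of the 5 with a negative log2 fold change in both delayed treatments against TRT0, -0.06 (SE 0.09) for TRT6 and -0.10 (SE 0.09) for TRT12, with edgeR unadjusted p-values of 0.460 and 0.243.

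**Figure D1:**
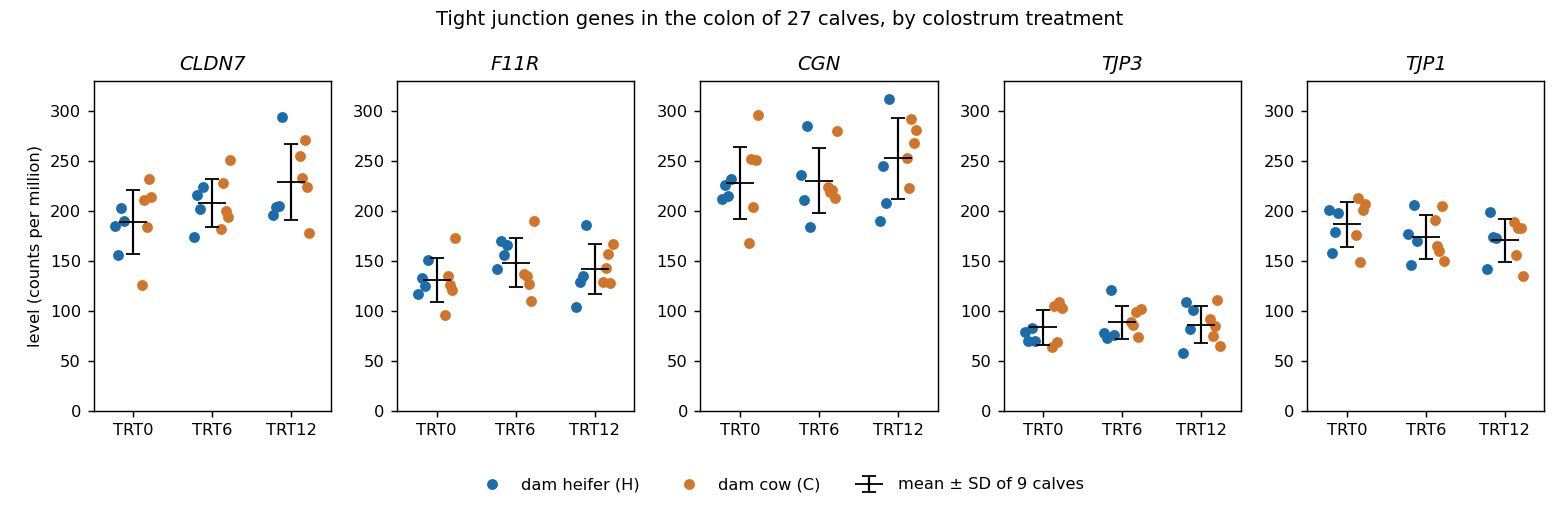
Level of each tight junction gene in CPM (vertical axis, from 0) in every calf of the 3 colostrum treatments (horizontal axis), with blue points for calves of heifers, orange points for calves of cows and black bars for the mean ± SD of 9 calves. The CLDN7 means are 189, 208 and 229 CPM from TRT0 to TRT12 with overlapping calves, whereas the TJP1 means are 187, 174 and 170 CPM.

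In the overall contrasts of treatment (TRT6 and TRT12 each against TRT0, and TRT12 against TRT6) and of parity (C against H), none of the 5 genes was called at an adjusted p of 0.10 and a fold change of 1.2 with edgeR, and neither was any other gene, the background being 0% of 13943 genes in each of these 4 contrasts. The likelihood ratio test of edgeR called 0 of the 5 in these contrasts. Of all 13943 genes it called 2 in C vs. H and 0 in each treatment contrast. At an unadjusted p under 0.05, the count was 0 of 5 genes in TRT6 vs. TRT0, beside 3.13% of all genes, and 1 of 5 (CLDN7) in TRT12 vs. TRT0, beside 9.37% of all genes. It was 0 of 5 in TRT12 vs. TRT6 and in C vs. H, beside 3.14% and 2.52% of all genes. The median log2 fold change of the 5 genes against TRT0 was 0.12 for TRT6 and 0.16 for TRT12, with 4 of 5 positive in both, and the medians over all genes were 0.0064 and -0.0039. Both contrasts use the same TRT0 calves, so their common direction is not 2 separate observations.

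Between dam parities the 5 genes differed little. The means of C and H calves (n = 15 and 12) were 212 ± 36.5 and 204 ± 33.7 CPM for CLDN7, 138 ± 24.6 and 143 ± 23.9 CPM for F11R, 243 ± 36.6 and 230 ± 37.1 CPM for CGN, 88.3 ± 16.3 and 83.2 ± 18.2 CPM for TJP3, and 177 ± 24.0 and 177 ± 21.4 CPM for TJP1. The log2 fold changes of C vs. H lay between -0.09 (F11R, SE 0.11) and 0.03 (TJP3, SE 0.09), each smaller than its standard error.

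In the 9 contrasts within a parity or a treatment, none of the 45 values was called by edgeR, beside 0% of all genes in each contrast, and the lowest adjusted p was 0.480. The only one of the 45 with an unadjusted p under 0.05 was CLDN7 in TRT12_C vs. TRT0_C (not with TRT0 calf 1 or TRT12 calf 2, 5 or 6 left out), a contrast in which 9.86% of all genes had such a p. For the other treatment contrasts that share was 1.95% in TRT6_C vs. TRT0_C, 6.71% in TRT12_C vs. TRT6_C, 3.35% in TRT6_H vs. TRT0_H, 3.56% in TRT12_H vs. TRT0_H and 1.8% in TRT12_H vs. TRT6_H. For C vs. H it was 2.52% among TRT0 calves, 3.86% among TRT6 calves and 2.68% among TRT12 calves. The log2 fold changes of the 5 genes ran from -0.24 to 0.35 over these contrasts, with standard errors of 0.12 to 0.20. The interaction of treatment and parity had edgeR unadjusted p-values of 0.492 to 0.948 for the 5 genes, where 2.67% of all genes were under 0.05 and 0.00717% passed the adjusted threshold.

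The mean summed level of the epithelium markers had the same order over the treatments as that of CLDN7, and its difference between treatments was not tested. The summed epithelium markers were 4403 ± 495.0 CPM in TRT0, 4886 ± 649 CPM in TRT6 and 5105 ± 827 CPM in TRT12 (SD, n = 9 each), and ranged over 3519 to 5009, 3786 to 5827 and 3847 to 6632 CPM. The treatments overlapped, and 10 of the 11 markers had a positive log2 fold change in TRT12 vs. TRT0. Of these, 2 (VIL1 and FABP1) had an edgeR unadjusted p under 0.05, beside 9.37% of all genes, and 0 were called by edgeR. When the mean level of the epithelium markers was added to the fit, the log2 fold change of CLDN7 in TRT12 vs. TRT0 was 0.15 in place of 0.31 (edgeR unadjusted p = 0.105, adjusted p = 0.901). In the same fit the value for CGN was 0.02 in place of 0.18, and that for F11R was -0.09 in place of 0.16. TJP1 was at -0.12, against -0.10 without the term. The median of the 5 genes was 0.02, against 0.16 without the term.

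**Figure D2:**
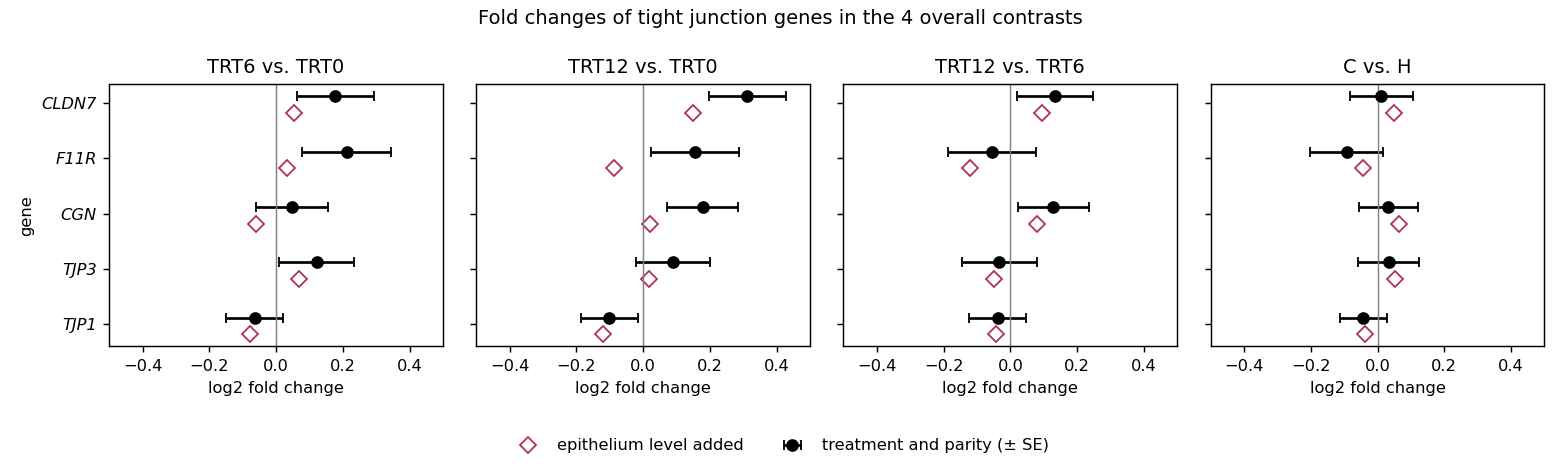
Log2 fold change (horizontal axis) of each tight junction gene in the 4 overall contrasts, with black points and bars for the estimate ± SE of the fit with treatment and parity, and open diamonds for the estimate with the epithelium level added. The CLDN7 value in TRT12 vs. TRT0 is 0.31 without and 0.15 with that term, and the TJP1 values lie below 0 in both.

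The 5 genes did not vary as one group from calf to calf. Over 27 calves and 35 relations (10 pairs of genes, and each gene against 5 marker lists), with 100000 permutations and p adjusted over all 35, the levels of F11R and CGN had a Pearson r of 0.75 (permutation p = 2e-05, adjusted p = 0.000175; Spearman rho = 0.72, adjusted p = 0.00035). Without the 2 calves farthest from the median of F11R, r was 0.66, and it was 0.38 and 0.89 within the first and second sequencing runs. CLDN7 and F11R had an r of 0.66 (permutation p = 0.00016, adjusted p = 0.00112; rho = 0.64, adjusted p = 0.00301), with 0.53 without the 2 farthest calves and 0.49 and 0.39 within the runs. The third run held 5 calves, under the 6 required here for a correlation, and its r values are not given. All levels came from the same libraries and share their normalization factors.

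The other pairs that passed did so less firmly. CLDN7 and CGN had an r of 0.62 (permutation p = 0.00056, adjusted p = 0.00327; rho = 0.49, adjusted p = 0.0504). That r was 0.39 without the 2 farthest calves, -0.01 within the first run and 0.66 within the second, so the relation did not hold in the first run. TJP3 and CGN had an r of 0.55 (permutation p = 0.00318, adjusted p = 0.0159; rho = 0.47, adjusted p = 0.0559), with 0.34 without the 2 farthest calves and -0.31 and 0.45 within the runs. CLDN7 and TJP3 had an r of 0.45 (permutation p = 0.0174, adjusted p = 0.0468; rho = 0.38, adjusted p = 0.130), with 0.26 without the 2 farthest calves and 0.23 and 0.14 within the runs. These relations rest in part on the calves at the ends of the range. TJP1 passed with none of the other 4 genes, its r values being 0.06 with CLDN7, 0.06 with F11R, 0.14 with CGN and 0.33 with TJP3.

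F11R, CLDN7 and CGN followed the epithelium markers, and the share of all genes that do so was not computed. The r with the summed epithelium level was 0.88 for F11R (rho = 0.87), 0.77 for CLDN7 (rho = 0.75) and 0.75 for CGN (rho = 0.68). Each of the r values had a permutation p of 1e-05, the smallest that 100000 permutations can give, and an adjusted p of 0.000117, and the adjusted p of the 3 rho values was at most 0.00201. Without the 2 calves farthest from the median of the epithelium level, r was 0.85 for F11R, 0.72 for CLDN7 and 0.68 for CGN. Within the first and second runs r was 0.80 and 0.78 for F11R, 0.65 and 0.64 for CLDN7, and 0.46 and 0.85 for CGN. After the epithelium level was removed from each gene by regression, none of the 10 pairs passed, and the r of F11R and CGN was 0.30 (permutation test, adjusted p = 0.515). The adjustment here again covered all relations, so passing also depends on those other than the pairs.

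TJP1 did not follow the epithelium markers. Its r with their summed level was 0.01 (rho = -0.08, permutation test, adjusted p = 0.989 and 0.869). Its r with the smooth muscle markers was 0.48 (permutation p = 0.0114, adjusted p = 0.0358; rho = 0.43, adjusted p = 0.0804), with 0.36 without the 2 farthest calves and 0.61 and 0.27 within the runs. The call did not hold on log2(CPM + 1) over library totals (r = 0.42, permutation test, adjusted p = 0.0746), after the run name was removed by regression (r = 0.42, adjusted p = 0.0625) or without TRT0 calf 1 and TRT12 calf 9 (r = 0.51, adjusted p = 0.0515), and r was as low as 0.36 with 1 calf left out. TJP3 lay between, with an r of 0.38 with the epithelium level (rho = 0.23, permutation test, adjusted p = 0.115 and 0.497), and -0.44 and 0.33 within the runs. Of the 5 relations with the fibroblast and matrix list and the 5 with the endothelium list, none passed for Pearson's r, while TJP1 and the endothelium list had a rho of 0.55 (permutation test, adjusted p = 0.0178) beside an r of 0.42 (adjusted p = 0.0656).

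TJP1, TJP3, F11R and CGN had negative r values with the leukocyte list, of which 2 genes (PTPRC and CSF1R) had an identifier, between -0.47 and -0.54 (permutation test, adjusted p of 0.0176 to 0.0358). The rho values lay between -0.14 and -0.48, and their adjusted p-values did not go below 0.0559. Without the 2 calves farthest from the median of the leukocyte level, r was -0.06 for TJP1, -0.42 for TJP3, -0.31 for F11R and -0.38 for CGN. Within the first and second runs it was -0.74 and 0.64 for TJP1, -0.14 and -0.42 for TJP3, -0.44 and 0.36 for F11R, and -0.52 and 0.15 for CGN, so that 3 of the 4 changed sign between runs. None of the 4 passed on log2(CPM + 1) over library totals, without TRT0 calf 1 and TRT12 calf 9, or after the epithelium level was removed. For TJP1 the r was not weaker in the last 2 settings, at -0.51 and -0.53 (permutation test, adjusted p = 0.0515 and 0.143). The r values of TJP3, F11R and CGN were weaker in both. With TMM factors alone left out, an alternative chosen after seeing the data, the r of TJP1 was 0.0062 (permutation test, adjusted p = 0.975).

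**Figure D3:**
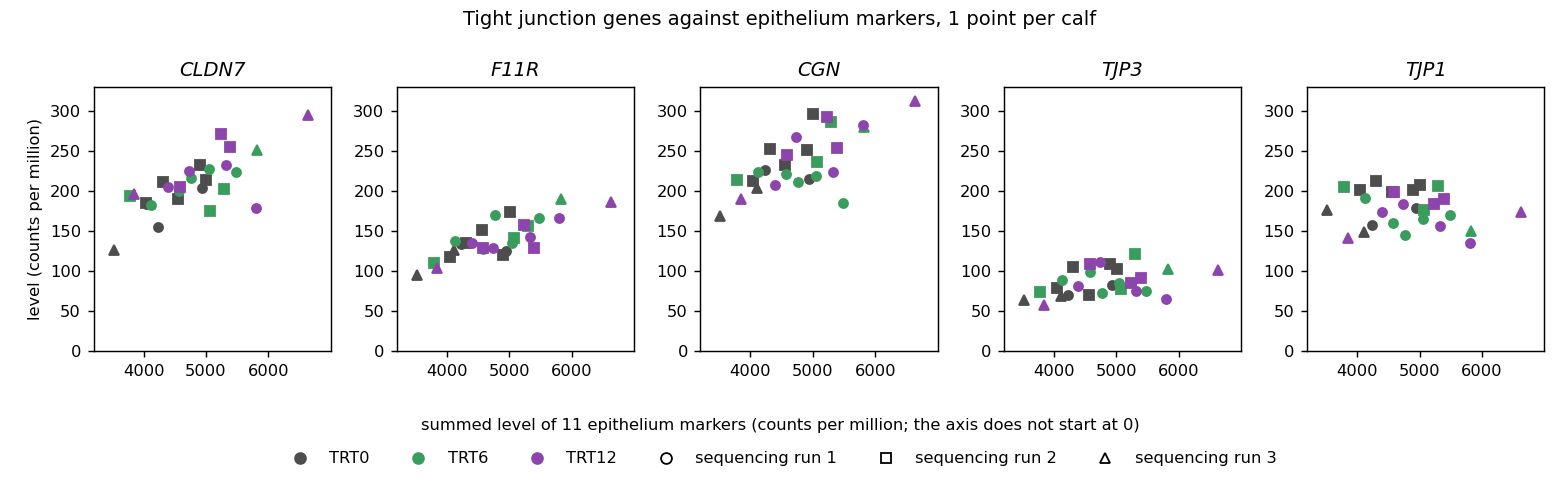
Level of each tight junction gene in CPM (vertical axis) against the summed level of 11 epithelium markers in CPM (horizontal axis, which does not start at 0), with 1 point per calf, colours for the treatments and shapes for the sequencing runs. F11R, CLDN7 and CGN are higher where the epithelium markers are higher (r of 0.88, 0.77 and 0.75), and TJP1 shows no such order (r of 0.01). These r values were computed on log2 CPM with TMM factors, whereas the points show CPM without them.

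The same few calves were at the ends for several genes. TRT0 calf 1, born to a cow, had the lowest epithelium level of the 27 (3519 CPM) and the lowest CLDN7 (126 CPM), F11R (95.4 CPM) and CGN (168 CPM). TRT12 calf 9, born to a heifer, had the highest epithelium level (6632 CPM) and the highest CLDN7 (294 CPM) and CGN (312 CPM), while its TJP1 level was 173 CPM, close to the median of 176 CPM over all calves. Both calves were sequenced in the third run. With both left out, an alternative chosen after seeing the data, the log2 fold change of CLDN7 in TRT12 vs. TRT0 was 0.18 (edgeR unadjusted p = 0.0898, adjusted p = 0.702), and 2 of the 10 pairs of genes passed in place of 5. These calves held the lowest TRT0 and the highest TRT12 level of CLDN7, so a smaller fold change was fixed in advance. Fewer passing pairs were likewise to be expected with both ends of the range left out.

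**Figure D4:**
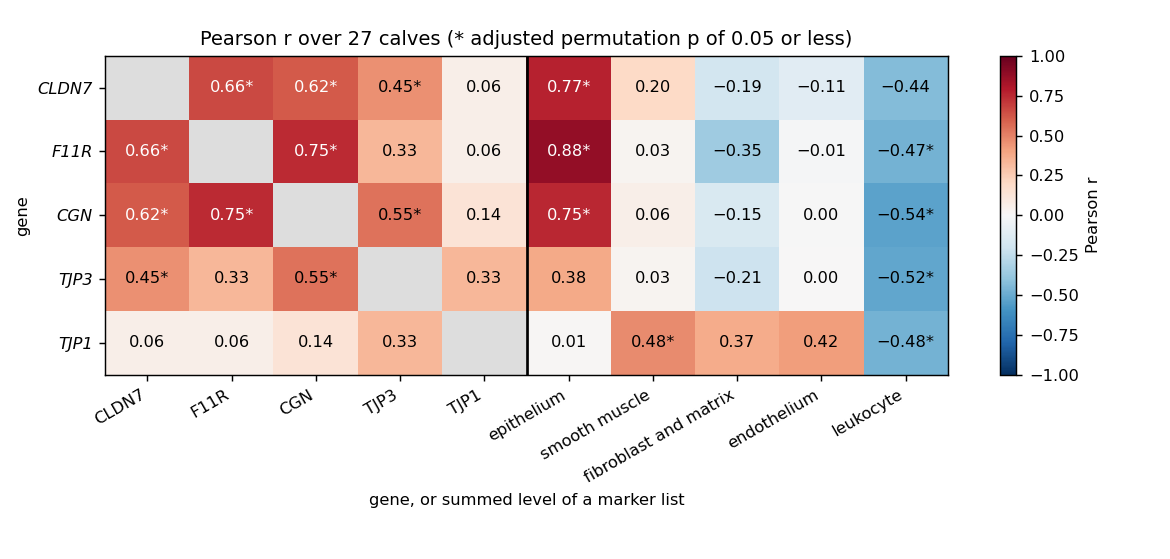
Pearson r over 27 calves between tight junction genes (left block, both axes) and between each gene and the summed level of 5 marker lists (right block), with colour and number giving r and a star an adjusted permutation p of 0.05 or less. CLDN7, F11R and CGN share r values of 0.62 to 0.75 with each other and 0.75 to 0.88 with the epithelium list, and the TJP1 row holds 0.06 to 0.33 for the other genes and 0.01 for the epithelium list.

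The genes whose levels were most like each of the 5 over the 27 calves differed between them. The search covered the 2909 genes that had a symbol in the gene tables used here and a mean of at least 10 CPM. For F11R these were CDH17, a cadherin of intestinal epithelium (r = 0.90), ATP1B3, a subunit of the sodium pump (r = 0.88), and TMEM45B (r = 0.87). For CLDN7 they were KRT8, an epithelial keratin (r = 0.84), LGALS3, a galectin (r = 0.83), and GNA11, a G protein subunit (r = 0.83). For CGN they were PRSS8, a membrane-bound serine protease (r = 0.84), SPINT1, an inhibitor of such proteases (r = 0.84), and MYO5B, a motor of apical membrane traffic (r = 0.83). CDH17 and KRT8 belong to the epithelium list used above. For TJP3 they were SEMA4G (r = 0.80), NCOR1, a nuclear co-repressor (r = 0.80), and IGSF9 (r = 0.78). For TJP1 they were LAMB1, a laminin chain of basement membranes (r = 0.70), JUN, a transcription factor (r = 0.69), and NRP2, a receptor of endothelial and nerve cells (r = 0.69). The highest value for TJP1 was lower than the third highest for each of the other 4 genes.

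TJP1 had the lowest p-value of the 5 genes for a difference between the sequencing runs. Its level was 165 ± 16.6 CPM in the first run (n = 11), 198 ± 10.8 CPM in the second (n = 11) and 158 ± 15.8 CPM in the third (SD, n = 5). The lowest calf of the second run, at 176.5 CPM, was next to the highest of the third, at 176.3 CPM. These CPM carry no TMM factors, whereas the fit below uses them, so that narrow gap does not hold on the fitted scale. In the edgeR fit with treatment and parity, a test added after seeing the data, the log2 difference of the second from the first run was 0.13 and that of the second from the third was 0.22 (unadjusted p = 0.0436, adjusted p = 0.305). The other 4 genes had unadjusted p-values of 0.425 to 0.961 in this test. None of the 5 was called between runs, where 2.41% of all genes were. With the run name in the fit, the log2 fold change of TJP1 in TRT12 vs. TRT0 was -0.07 and that of CLDN7 was 0.31 (edgeR adjusted p = 0.815 and 0.429).

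Further tight junction genes were taken from a list of 31, of which 16 had a single identifier in the gene tables used here and 15 passed the filter. With edgeR, 0 of the 15 were called in any of the 4 overall contrasts. In TRT12 vs. TRT0, 7 of the 15 had a positive log2 fold change and their median was -0.0043, against 0.16 for the 5 genes above and -0.0039 for all genes. Of the 15 genes, 1 had an unadjusted p under 0.05 in this contrast, where 9.37% of all genes had one.

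That gene was JAM2, a junctional adhesion molecule best known from endothelium and a relative of F11R. Its level ran from 18.6 CPM through a median of 27.9 CPM to 32.2 CPM in TRT0, from 13.2 CPM through 22.4 CPM to 26.7 CPM in TRT6, and from 14.5 CPM through 20.6 CPM to 23.3 CPM in TRT12. Of the 9 TRT0 calves, 7 were above every TRT12 calf. The means were 27.1 ± 4.22, 22.0 ± 3.85 and 19.8 ± 3.04 CPM (SD, n = 9 each), and the log2 fold change was -0.28 (SE 0.13, edgeR unadjusted p = 0.0356, adjusted p = 0.99999) in TRT6 vs. TRT0. In TRT12 vs. TRT0 it was -0.39 (SE 0.13, edgeR unadjusted p = 0.00374, adjusted p = 0.421). The direction was opposite to that of F11R, and neither gene passed the adjusted threshold. Over the same treatments the 3 endothelium markers with an identifier summed to 368 ± 66.7, 373 ± 48.3 and 348 ± 45.6 CPM, and their part in the JAM2 values was not tested.

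The 5 genes of the list with the highest mean levels did not separate by treatment. CLDN2, a claudin that forms a cation-selective pore, had means of 351 ± 49.2, 387 ± 62.2 and 382 ± 75.8 CPM in TRT0, TRT6 and TRT12 (SD, n = 9 each), with a log2 fold change of 0.17 (SE 0.13) in TRT12 vs. TRT0. AFDN, which encodes the scaffold afadin, had means of 173 ± 39.0, 166 ± 37.5 and 156 ± 34.4 CPM, and PATJ, a polarity scaffold that binds ZO-3, had means of 123 ± 16.2, 119 ± 22.8 and 108 ± 14.0 CPM. ARHGEF2, whose protein is held at the junction by cingulin, had means of 122 ± 17.4, 121 ± 18.8 and 116 ± 17.3 CPM, and YBX3, a nucleic acid binding partner of ZO-1, had means of 102 ± 19.9, 92.9 ± 21.5 and 99.9 ± 14.6 CPM. For these 4 genes the log2 fold change of TRT12 vs. TRT0 lay between -0.15 (PATJ, SE 0.11) and -0.0043 (YBX3, SE 0.13). In C vs. H, 1 of the 15 had an edgeR unadjusted p under 0.05, beside 2.52% of all genes. It was MARVELD2, which encodes tricellulin, the seal where 3 cells meet (log2 fold change -0.28, SE 0.12, edgeR unadjusted p = 0.0206, adjusted p = 0.99985). MARVELD2 was named here after its values were seen.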

How the data were processed

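The deposited values were raw counts, that is whole reads for each Ensembl gene and each of 27 calves. Per the study's methods, the authors removed reads that failed the chastity filter, used TopHat2 2.1.1 to align to UMD 3.1 and SAMtools 1.4 to sort, and counted with HTSeq-count, where reads of several genes were dropped. The strand used in counting is not given in the sources used here, so overlapping and antisense genes are uncertain. No 2 calves had identical counts.

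CPM was computed over the summed gene counts of a calf. At the totals found, 3 counts came to 0.714 to 2.58 CPM. This covers counting error only.

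Treatment came from the labels and dam parity from the study's sample table, joined by calf name. Tests used edgeR 4.0.16 in R 4.3.3 (TMM factors, quasi-likelihood test, all 27 calves, all genes past the filter) with treatment and parity as additive terms for the 4 overall contrasts, and with 6 means for the 9 contrasts within parity or treatment and the interaction. A gene was called where its Benjamini-Hochberg adjusted p was at most 0.10 and its fold change at least 1.2. Each calf is 1 animal, so p-values measure the spread between animals. Correlations used log2 CPM with TMM factors and two-sided permutation tests in Python 3.11.15 with numpy 2.4.6. The scripts were tested on simulated data.

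The tight junction genes and marker lists were chosen with earlier results of these data known. Named besides the 5 genes were, from the further tight junction list, the 5 with the highest mean CPM and any with an unadjusted p under 0.05 in an overall treatment contrast, plus the 3 most similar genes for each of the 5. Symbols were matched to identifiers through incomplete copies of the study's gene tables, which paired 4044 identifiers with 1 symbol. A gene without an identifier here may therefore have one in the full tables. No coordinates or sequences are given. Alternatives were the likelihood ratio test, DESeq2 1.42.0, totals without TMM factors or without the 10 highest genes, no filter, run name or epithelium level as a covariate, the compared treatments only, and each calf left out.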

Additional observations from a re-analysis of the deposited data

Results flagged for a closer look

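In 3 of 45 groups (5 genes in 9 groups of 4, 5 or 9 calves) 1 calf lay far from the others, where chance gives about 1 in 20. CLDN7 was 294 CPM in TRT12 calf 9, against 205 CPM in the next of the 4 TRT12_H calves. TJP3 was 121 CPM in TRT6 calf 3, against 78.1 CPM in the next of the 4 TRT6_H calves. CGN was 280 CPM in TRT6 calf 9, against 224 CPM in the next of the 5 TRT6_C calves.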

How the results depend on the processing

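No tight junction gene was called in an overall contrast under any alternative except DESeq2, which called 1 (CLDN7) in TRT12 vs. TRT0, and 0 when p was adjusted over all genes. None were called in the 9 contrasts or the interaction under any alternative run for them. Of all genes in TRT12_C vs. TRT0_C, DESeq2 called 4 of 13942. The fit with the run name called 4 of 13943 there and the likelihood ratio test 2, which also called 2 in the interaction. Leaving out any 1 calf left 0 of the 5 genes called in each contrast. The log2 fold change of CLDN7 in TRT12 vs. TRT0 was then 0.25 to 0.35 (edgeR unadjusted p of 0.00541 to 0.0345, adjusted p of 0.233 to 0.684). Leaving out TRT6 calf 8 added F11R to the genes with an edgeR unadjusted p under 0.05 in TRT6 vs. TRT0, beside 647 of all 13943 genes. Leaving out TRT12 calf 1 added CGN in TRT12 vs. TRT0, beside 1282 of all genes. In the 9 contrasts, leaving out TRT12 calf 1 gave TJP3 such a p in TRT12_H vs. TRT0_H, beside 346 of all genes. Without TRT0 calf 8, CGN had one in TRT12_C vs. TRT0_C, beside 1066 of all genes. Without TRT12 calf 9, F11R (TRT12_H vs. TRT6_H) and CGN (TRT12_C vs. TRT12_H) had one. With every calf kept, 1.8% and 2.68% of all genes did in those 2 contrasts. Of 195 fold changes under 10 other alternatives, 191 kept their sign. The exceptions were CGN in TRT6 vs. TRT0 (-0.061 with the epithelium level in the fit and -2.9e-05 without TRT0 calf 1 and TRT12 calf 9), F11R in TRT12 vs. TRT0 (-0.088 with the epithelium level) and TJP1 in C vs. H (0.0039 without TMM factors). With 1 calf left out, 18 of 540 changed sign, all near 0. The ranges were -0.015 to 0.059 (CLDN7), -0.011 to 0.075 (TJP3) and -0.0064 to 0.076 (CGN) in C vs. H, and -0.075 to 0.0029 (TJP1), -0.082 to 0.026 (TJP3) and -0.12 to 0.0062 (F11R) in TRT12 vs. TRT6. The pairs of genes that passed numbered 5, and 6 on log2(CPM + 1) or without TMM factors, 0 after removing the epithelium level, 2 without TRT0 calf 1 and TRT12 calf 9, and 3 to 5 with 1 calf left out, with 3 without TRT0 calf 1 or without TRT12 calf 1. After removing the epithelium level the r of CLDN7 and F11R was -0.037. The r of TJP1 with the leukocyte list was 0.0061 on log2(CPM + 1) and 0.0062 without TMM factors alone. The cause of the other changes was not tested. No paired analysis was possible because the labels give no replicate numbers that pair calves. Standard errors of 0.09 to 0.13 on the log2 scale in the treatment contrasts limit what 9 calves per treatment can show.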

Other observations

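Genes of the neighbouring adherens junctions and desmosomes, which hold epithelial cells together below the tight junction, were also measured. All 9 with an identifier had a positive log2 fold change in TRT6 and in TRT12 against TRT0, with medians of 0.06 and 0.13 against 0.0064 and -0.0039 for all genes, and 0 of the 9 were called by edgeR. In TRT12 vs. TRT0, 2 of the 9 had an unadjusted p under 0.05, beside 9.37% of all genes. They were DSC2, a desmosomal cadherin (log2 fold change 0.33, SE 0.11, edgeR adjusted p = 0.421), and CDH1, which encodes E-cadherin (log2 fold change 0.23, SE 0.10, edgeR adjusted p = 0.505), both named here after their values were seen. Both contrasts share the TRT0 calves. The summed epithelium markers were 4403, 4886 and 5105 CPM in TRT0, TRT6 and TRT12, and their part in these values was not tested.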
